A study of Homo sapiens with 9 samples.

Results

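The solvent-only state of the cells labelled NB4 was described from the 3 libraries titled DMSO, replicates 1 to 3, which were chosen by their titles and are 3 of the 9 libraries of the series. All 26830 genes of each table were read and no treated library was used. NB4 is an established human line derived from an acute promyelocytic leukaemia, although the labels give the cell type as acute monocytic leukemia. The cells had been kept for 48 h with dimethyl sulfoxide (DMSO), the solvent that served as the control for the FTO inhibitors FB23 and FB23-2, and the labels name no other agent and no altered allele. Poly(A) RNA from whole cultures was sequenced, so that fewer cells of a type and less RNA per cell cannot be told apart. Nothing in the labels tells if each replicate was a culture of its own, and the spread given here may be technical.

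Blood cells of each lineage make proteins that are characteristic of them. Promyelocytes fill primary granules with myeloperoxidase and serine proteases, monocytes carry CD14 and the receptor for macrophage colony-stimulating factor, and red cell precursors build haemoglobin, a spectrin-based membrane skeleton and the surface proteins known as blood groups. Transcription factors that bind GATA sequences, with KLF1, TAL1 and their partners, are known to drive the red cell programme, while SPI1 and the C/EBP factors are known to drive the myeloid one.

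Levels are given as TPM (transcripts per 1000000), a scale corrected for gene length, so that genes can be compared with each other within these libraries. A gene is called expressed here when it reached 1 TPM in all 3 libraries, and silent when no count was estimated for it in any of them. The libraries held 17195555, 18514243 and 16804604 expected counts. Between 15437 and 15589 genes had a count and between 11555 and 11630 reached 1 TPM in each library. In all, 11302 genes were expressed, which is 42.1% of the rows, and 9997 were silent, which is 37.3%. Effective length is the number of positions at which a fragment can start, and 2420 rows had one of 0 in all 3 libraries. Such a row can take no count, so that its silence was fixed in advance. Among the 18783 rows that matched a protein-coding gene, 10408 were expressed (55.4%) and 4395 were silent (23.4%). A gene with 0 counts in 3 libraries could still have had up to 3 counts over the group, and the TPM that this allows depends on its length. These limits cover counting error only.

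The libraries were alike. Across genes, Pearson's r between pairs of libraries was 0.998 on log2(TPM + 1), a description of genes that are not independent replicates. Among 7461 genes with a mean of at least 10 TPM, the median SD was 3.51% of the mean, and the range from the 5th to the 95th percentile was 0.875% to 10.1%. For 4134 genes between 1 and 10 TPM the median was 9.02%. The variance between libraries was 1.01 times that of counting error at the median of genes with 10 to 100 counts and 6.20 times at 10000 counts or more. The mean ratios were 1.72 and 50.7. With 3 libraries the median of this ratio lies under its mean even when counting error acts alone. A median of 1.01 therefore does not mean that counting error was the only source of spread. Ribosomal RNA stood out among genes of at least 10 TPM and an effective length of at least 300 bases: RNA28S5 had 512.71 TPM in replicate 1, 243.76 in replicate 2 and 201.95 in replicate 3, and RNA45S5 had 159.82, 90.02 and 83.86. Replicate 1 was thus the highest for both, and the share of ribosomal RNA in counts ran from 0.186% to 0.374%. The other 3 of the 5 most variable genes of that level and length were SMIM11A, GTF2IP1 and MINCR, whose SDs were 51.7%, 42.8% and 42.7% of their means.

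The abundant transcripts were mostly those of the machinery for making protein. The 85 cytosolic ribosomal protein genes held 30.2% to 30.6% of TPM in the 3 libraries and 84 of them were expressed. The 10 most abundant genes held 10.7% of TPM and 182 genes held 50% of it. These shares depend on how short genes are scaled. The 4379 genes with an effective length under 300 bases, where effective length is the number of positions at which a fragment can start, held 27.6% to 27.98% of TPM but 3.16% to 3.22% of counts. Ribosomal protein genes held 7.35% to 7.49% of counts. Without the short genes 419 genes made up 50% of TPM, and by CPM (counts per 1000000), which ignores length, 924 did. The first gene by TPM, RPS27, had 17407 TPM at an effective length of 24 bases and took rank 580 by CPM. The keratin-associated gene KRTAP20-4 had an effective length of 2 bases, and its 1 count gave 43.84 TPM in replicate 2 against 0 in the others.

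Among genes of at least 300 bases, RPS2, a protein of the small ribosomal subunit, was the highest, with 11506.38, 11338.45 and 11414.73 TPM in replicates 1 to 3 (mean 11420 ± 84.1, SD, n = 3). EEF1A1, the factor that carries aminoacyl-tRNA to the ribosome, followed with 7229.94, 7433.46 and 7264.33 TPM (7309 ± 109) and was the first gene by CPM. No library of RPS2 overlapped those of EEF1A1. Ferritin light chain (FTL), part of the iron storage shell, had 6809.89, 6322.64 and 6303.66 TPM (6479 ± 287), with replicate 1 above the others, and the heavy chain FTH1 had a mean of 2975. RPLP0, a protein of the large subunit, had a narrow range of 5937.16 to 5958.72 TPM.

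Of the 30 most abundant genes of that length, 19 coded for ribosomal proteins. The others included the elongation factors EEF1G (mean 3960 TPM) and EEF2 (3757), the constitutive chaperone HSPA8 (4058), the glycolytic enzyme GAPDH (3947), the tubulin TUBA1B (3177) and the nucleolar protein NPM1 (3153). MTRNR2L2 (6078) and MTRNR2L8 (4214) are nuclear copies nearly identical to mitochondrial ribosomal RNA, and reads cannot be assigned to them with certainty. The same holds for RPL13AP5, a pseudogene listed at 10906 TPM, 6.59 ± 0.174 times its parent gene RPL13A. Other families of general function differed in level. Of 103 genes for respiratory chain and ATP synthase subunits, 91 were expressed, with a median of 129 TPM, and 35 of 38 proteasome subunits, with a median of 163. Medians were lower for tubulins, actins and actin-binding proteins such as CFL1 and PFN1 (25.6 TPM, 27 of 35 expressed). They were lower also for chaperones (15.5, 71 of 103) and histones (1.92, 45 of 91). The libraries were made from poly(A) RNA, so that histone RNA without a poly(A) tail would be missed.

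**Figure D1:**
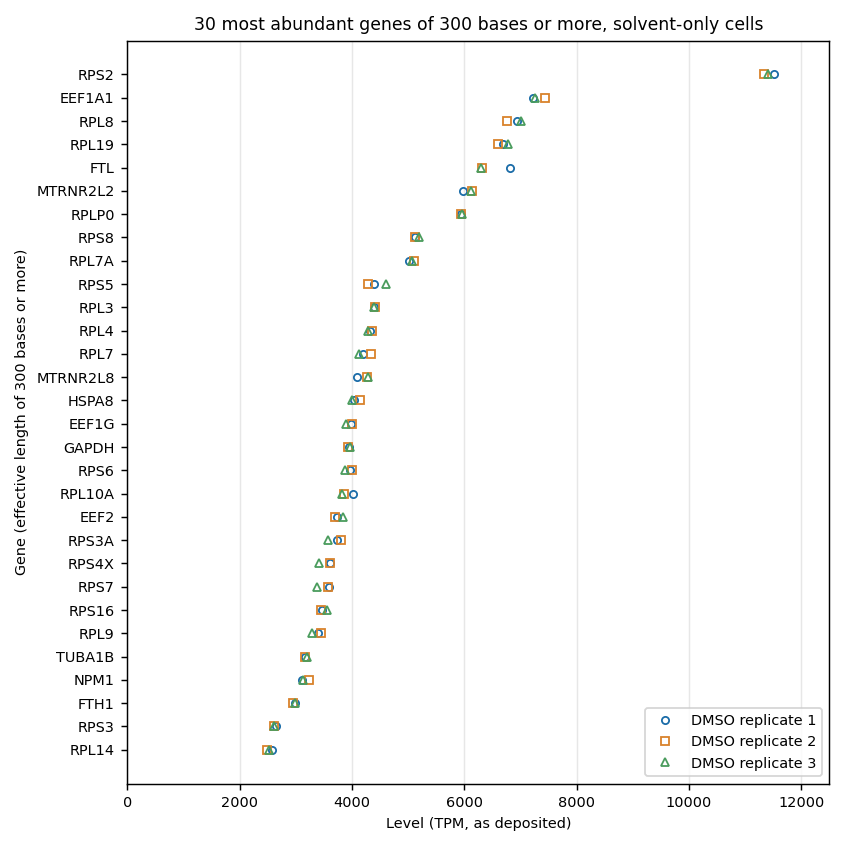
TPM as deposited (horizontal axis, linear) of the 30 genes with the highest mean among genes with an effective length of at least 300 bases, with a marker for each of the 3 DMSO libraries. RPS2 lies apart at 11338 to 11506 TPM, and the markers of each gene lie close together in the 3 libraries.

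Genes of dividing cells were expressed throughout. All 18 listed genes of replication and mitosis were expressed, against 55.4% of protein-coding rows, with a median of 159 TPM. PCNA, the clamp that holds DNA polymerase on its template, had 529.10, 530.34 and 522.86 TPM. The thymidylate synthase gene TYMS had a mean of 440, the mitotic kinase PLK1 219, the topoisomerase TOP2A 169 and the proliferation marker MKI67 101. Among D-type cyclins CCND3 had 153 TPM, CCND2 18.2 and CCND1 6.93, and their libraries did not overlap.

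Genes that define promyelocytes were at 0 or low. Of 16 genes of promyelocytes and primary granules, 3 were expressed (18.8%) and 8 were silent (50%), against 55.4% and 23.4% of protein-coding rows. No count was estimated in any library for MPO (chromosome 17, 58269855 to 58280935, GRCh38.p14), the gene of myeloperoxidase. The proteases ELANE (chromosome 19, 852303 to 856243) and CTSG (chromosome 14, 24573518 to 24576250) and the bactericidal protein BPI were at 0 as well. Zero counts allow up to 0.0277 TPM of MPO, 0.125 of ELANE and 0.144 of CTSG. PRTN3, the gene of proteinase 3, had 0.76, 0.60 and 0.66 TPM on 16 counts in all. AZU1, the gene of azurocidin, had 0, 0.96 and 0.46 TPM on 10 counts.

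The 3 expressed members of that list were CFD, LYZ and MS4A3. Complement factor D (CFD) had 56.67, 63.51 and 68.55 TPM (62.9 ± 5.96). Lysozyme (LYZ) had 3.96, 4.65 and 4.45 TPM, and MS4A3, a membrane protein of granulocyte precursors, 2.38, 2.16 and 1.44. CFD was far above the others in each library, and MS4A3 overlapped the granule proteoglycan gene SRGN, which had a mean of 1.24 TPM.

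Genes of later myeloid stages were low too, beside the background of 55.4% expressed and 23.4% silent among protein-coding rows. Of 18 neutrophil maturation genes, 12 were silent, among them LTF, CAMP and MMP8, which code for secondary and tertiary granule proteins, and 1 was expressed, CSF3R, the receptor for granulocyte colony-stimulating factor (1.54, 1.06 and 1.52 TPM). S100A8 had 0 counts, but its effective length of 77 bases means that up to 1.02 TPM is allowed. Of 18 monocyte and macrophage genes with a row, 2 were expressed, the lysosomal protein CD68 (5.06 ± 0.570 TPM) and the integrin ITGAM (4.45 ± 0.233), and 8 were silent. CD14, the receptor for bacterial lipopolysaccharide, had 0.14, 0.13 and 0.84 TPM, and the receptor gene CSF1R had 3 counts over the 3 libraries. The markers of neither labelled identity, promyelocytic or monocytic, were therefore present as a group, and the cells are called by their label only.

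Of 15 pan-myeloid genes, 7 were expressed (46.7%) and 2 silent (13.3%), against 55.4% and 23.4% of protein-coding rows. CD33, a sialic acid-binding receptor of myeloid cells (chromosome 19, 51211076 to 51240016), had 44.77, 43.71 and 43.57 TPM (44.0 ± 0.656). LAPTM5, a lysosomal membrane protein of blood cells, had 37.8 TPM, the myeloid and lymphoid factor SPI1 25.1, the tetraspanin CD53 17.4, and FUT4, which makes the CD15 sugar epitope, 13.1. The libraries of neighbouring genes in this order did not overlap. CYBA, a subunit of the phagocyte oxidase that is also made outside phagocytes, had 333.78, 317.91 and 345.71 TPM. CYBB, its partner subunit, had 1.45, 1.48 and 1.17, and CYBA was 247 ± 42.8 times as high. The oxidase factor NCF1 had 1 count, and the kinase gene FGR was silent.

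Erythroid genes formed the list with the most expressed members among the 17 lineage lists. Of 30 erythroid genes, 25 were expressed (83.3%) and 1 was silent (3.33%), against 55.4% and 23.4% of protein-coding rows. The list's median was 37.5 TPM. Over all 26830 rows the median was 0.203 TPM, but these rows include noncoding RNAs that were mostly silent. Biliverdin reductase B (BLVRB) had 570.37, 569.46 and 592.68 TPM, and the transferrin receptor TFRC, which brings iron into the cell, had 545.73, 571.57 and 552.15. These neighbours overlapped. RHAG, the glycoprotein that carries the Rh complex, followed with 315.88, 326.15 and 319.20 TPM, apart from both. Next were HEMGN (124), a nuclear protein of blood cell precursors, the membrane skeleton protein EPB41 (121) and SLC25A37 (97.5), the mitochondrial iron importer.

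The remaining erythroid genes covered several roles. ALAS2, the erythroid enzyme of the first step of haem synthesis, had 78.61, 78.52 and 80.85 TPM. ANK1, which ties the spectrin network to the membrane, had 59.4, and the spectrin SPTB had 38.1. Blood group genes were present across systems: ICAM4 at 94.7 TPM, GYPC at 66.2, ERMAP at 36.9, KEL at 27.1 and XK at 21.8. RHCE (43.2) and RHD (13.8) are close copies, as are GYPE (77.1) and GYPB (36.1), so that reads may have been split between them wrongly. Of the 24 neighbouring pairs in this list, 10 overlapped in their libraries.

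The other members of the erythroid list were not expressed, and whether they share a stage of red cell formation was not tested. SLC4A1, the anion exchanger known as band 3, had 0.923 TPM on average, EPB42, which binds it, 0.400, the carbonic anhydrase CA1 0.160 and TSPO2 0.0433. AHSP, the chaperone of alpha globin, had 0 counts, which allows up to 0.497 TPM at its effective length of 158 bases. Globin RNA was 2.71% to 2.87% of TPM and 0.428% to 0.455% of counts, led by fetal HBG2 (8367.09, 8093.66 and 7849.31 TPM) and embryonic HBZ (7290.80, 6770.18 and 7433.94). Adult HBB had 4.16, 2.38 and 2.30 TPM, whereas the alpha globin genes HBA1 and HBA2 had means of 4842 and 1863. HBG2, HBZ, HBB, HBA1 and HBA2 all have effective lengths under 300 bases. Reads may also have been split between HBG2 and HBG1, and between HBA1 and HBA2.

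Megakaryocyte and platelet genes were mixed. Of 23 genes, 6 were expressed (26.1%) and 6 silent (26.1%), against 55.4% and 23.4% of protein-coding rows. The silent share was thus near that background. GP1BB, a subunit of the von Willebrand factor receptor, had 380.75, 393.57 and 432.83 TPM, 14.8 ± 1.74 times the tetraspanin CD9 (27.3), which was next. The thrombin receptor F2R had 7.90 TPM. The integrin ITGA2B, a defining marker of the lineage, had 0.797 TPM, its partner ITGB3 0.0967, and GP9, PF4 and PPBP were at 0. Stem and progenitor genes had 6 expressed members of 20 and 9 silent ones. CD99 led with 61.9 TPM, followed by the RNA-binding MSI2 (17.8), the ligand ANGPT1 (15.5) and the zinc-finger factor MECOM (7.06). CD34, PROM1 and FLT3 were at 0, and the receptor gene KIT had 1 count.

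Other lineages were represented by few genes, beside the background of 55.4% expressed and 23.4% silent among protein-coding rows. None of 20 B cell genes was expressed and 9 were silent, including MS4A1 and PAX5. Of 23 T and natural killer cell genes, CD3D alone was expressed (4.81, 6.54 and 4.29 TPM), with CD3G, CD247 and LCK at 0. Of 17 mast cell, basophil and eosinophil genes, 10 were silent and 2 were expressed, PRG2, the eosinophil major basic protein (14.1 TPM), and EPX (1.36). Of 6 class II antigen presentation genes with a row, HLA-DOB alone was expressed (3.36), and CIITA, the activator of the class, and CD74 were at 0.

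Outside blood, 3 keratins of simple epithelia were high. KRT18 had 290.90, 286.36 and 285.30 TPM and its pairing partner KRT8 had 227.91, 222.90 and 230.68, a ratio of 1.27 ± 0.0256. KRT19 had 89.4 TPM and the adhesion molecule EPCAM 73.5, whereas KRT7 had 1.64, E-cadherin (CDH1) had 0.0767 and KRT14 and KRT20 were silent. In all, 6 of 17 epithelial genes were expressed (35.3%), against 55.4% of protein-coding rows, which is the background for each list here. VIM, the intermediate filament of mesenchymal and blood cells, had 1037 ± 26.2 TPM, with 3 of 15 genes of its list expressed and PDGFRA, FAP and POSTN at 0. Among endothelial genes 3 of 14 were expressed, none with a mean above 4.95 TPM, and among neural genes 3 of 15, led by the tubulin TUBB3 (73.1). Transferrin (TF, 15.7 TPM) was the expressed member of 13 hepatocyte genes and desmin (DES, 5.05) of 10 muscle genes.

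**Figure D2:**
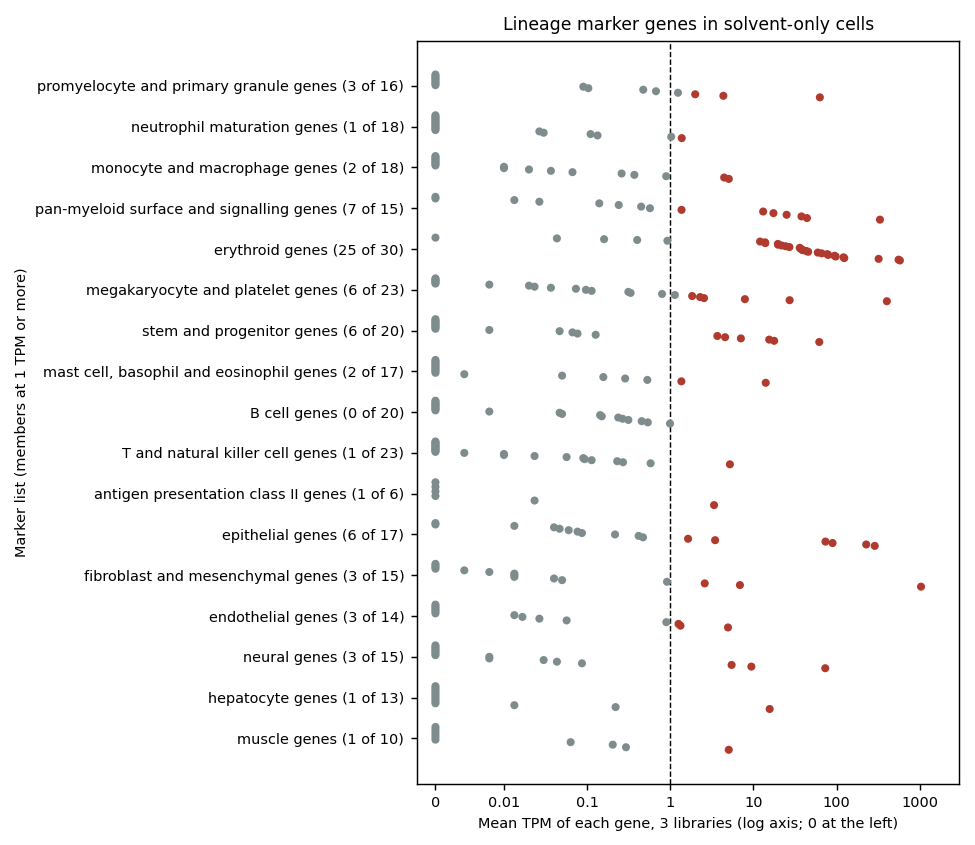
Mean TPM over the 3 DMSO libraries (horizontal axis, log scale, with 0 drawn at the left edge) of each gene in 17 lineage marker lists, in rows with the number of expressed genes. Red points are genes at 1 TPM or more in all 3 libraries, grey points are the others, and the dashed line is 1 TPM. The erythroid row has 25 of 30 points in red, and the promyelocyte row has 3 of 16.

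Transcription factors were described from 1184 genes of 22 families and 5 lists. Of these, 641 were expressed (54.1%) and 247 silent (20.9%), with a median of 2.06 TPM, close to the shares of 55.4% and 23.4% for protein-coding rows. The highest entries were RHOXF2 and RHOXF2B, homeobox genes of the X chromosome known from germ cells, at 690 TPM each. They are near-identical copies with the same value in every library, so that the level of either is uncertain. MYC, the growth-promoting factor, had 679.01, 687.23 and 681.38 TPM (683 ± 4.23), above the remaining factors of these families and lists. It was under the RHOXF2 value in each library, but the ranges over the libraries overlapped. By CPM the order was reversed, with 986 for MYC and 467 for RHOXF2.

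Erythroid and megakaryocyte factors were mostly expressed. Of 20, 17 were expressed (85.0%), 2 were silent and the median was 32.2 TPM. Over all 1184 factors 54.1% were expressed, and over protein-coding rows 55.4%. Whether each member of the list is limited to these lineages was not tested. LYL1 (chromosome 19, 13099033 to 13102858), a relative of TAL1, had 305.02, 299.37 and 309.28 TPM. KLF1 (chromosome 19, 12884422 to 12887201), the erythroid Kruppel-like factor, had 298.45, 276.86 and 283.11, and GATA1 (chromosome X, 48786590 to 48794311) had 286.45, 278.96 and 281.19. KLF1 and GATA1 overlapped, while LYL1 lay just above both. NFE2, the subunit that acts at globin and platelet genes, had 225 ± 1.09 TPM and GATA2, which precedes GATA1 in progenitors, 123.2 ± 1.80. GATA1 was 2.29 ± 0.0299 times as high as GATA2.

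The bridging protein LDB1, a partner of these factors, had 121 TPM and overlapped GATA2. Other members had the following levels: the proto-oncogene MYB 83.3 TPM, the repressor GFI1B 55.9, MAFG 45.9, LMO2 33.3 and TAL1 31.1. ZFPM1, the GATA1 cofactor, had 12.3 TPM and RUNX1 9.53. Silent members were FLI1, a factor of megakaryocytes, and BCL11A, a repressor of fetal globin genes, for which 0 counts allow up to 0.0258 and 0.0220 TPM. SOX6, which also acts on globin genes, had 0.690 TPM.

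Of 18 myeloid factors, 10 were expressed (55.6%) and 4 were silent (22.2%), near the 55.4% and 23.4% of protein-coding rows. CBFB, the common partner of RUNX proteins, had 77.7 TPM, EGR1 72.4, CEBPB 56.5 and CEBPD 34.5. SPI1 had 28.33, 23.81 and 23.06 TPM, and GATA1 was 11.3 ± 1.09 times as high. CEBPA, which promyelocytes require, had 5.07, 5.43 and 4.64 TPM, and CEBPE, the factor of secondary granules, had 3 counts in all. RARA had 9.35 ± 0.122 TPM and PML 8.78 ± 0.118. The fusion of these genes is known from promyelocytic leukaemia, and gene-level tables do not show fusion transcripts. IRF8, RUNX3 and IRF4 were at 0.

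**Figure D3:**
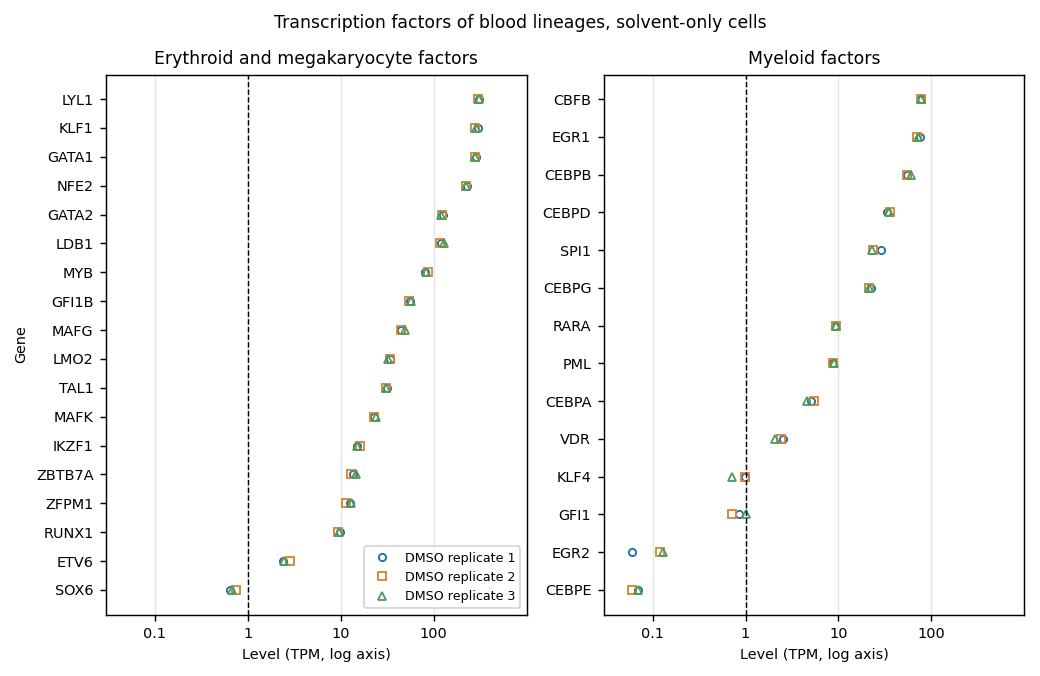
TPM in each of the 3 DMSO libraries (log scale) of erythroid and megakaryocyte factors (18 of 20) and myeloid factors (14 of 18), ordered by mean. Members with 0 counts in all 3 libraries are not drawn. On the left, 17 genes lie at 1 TPM or more, up to 309 for LYL1, and on the right 10 do, up to 78.0 for CBFB.

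Factors of other programmes were expressed at shares near or under the 55.4% of protein-coding rows. Of 19 lymphoid factors, 9 were expressed (47.4%), led by the broadly acting TCF3 (114 TPM) and by LEF1 (18.2), while PAX5, TBX21 and EOMES were at 0. Progenitor factors had 9 of 15 expressed (60.0%), among them HHEX (114), the fetal RNA-binding protein LIN28B (43.9), which was listed with them, and HOXB4 (36.8). HOXA9 had 0.127 TPM. Of 39 HOX genes, 14 were expressed (35.9%), led by HOXB9 (93.45, 89.19 and 89.18 TPM), HOXD13 (56.7) and HOXB2 (46.5). PITX1, a limb and pituitary factor, had 149 ± 6.01 TPM and TBX1, of the embryonic pharynx, 57.4 ± 2.38.

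Factors that respond to signals differed by family in the share expressed, which is 55.4% over protein-coding rows. STAT5A, which acts below cytokine receptors, had 150.10, 154.04 and 156.51 TPM, 2.04 ± 0.0128 times STAT5B, and 6 of 7 STAT genes were expressed. ATF4, of the stress response, had 269 TPM and JUND 177 ± 20.8, with replicate 2 (153.15) below the other libraries. Among 11 E2F and DP genes 10 were expressed, led by E2F4 (155), and MYBL2 had 154. Of 8 IRF genes 4 were expressed (50%), with IRF3 at 72.0. Nuclear receptors had 21 of 47 expressed (44.7%): NR2F6 was first (121), then ESRRA (69.7) and NR1H2 (35.1), and NR5A1, a factor of steroid-making tissues, had 10.4 TPM. The estrogen receptor ESR1 and the progesterone receptor PGR were at 0. FTO, the demethylase that FB23 and FB23-2 target, had 13.45, 14.08 and 12.80.

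GATA factors bind a short sequence, and the promoters of erythroid genes were searched for it because GATA1 and GATA2 were both well expressed. The word GATA, with an A or a T before it and an A or a G after it, was sought on both strands in the 250 bases before the first start listed for each gene in RefSeq (GRCh38.p14), with overlapping matches each counted. At least 1 word was found in 13 of the 20 erythroid genes with a promoter (65.0%), in 2 of 9 promyelocyte and granule genes (22.2%) and in 6254 of 27305 promoters in all (22.9%). Among the expressed erythroid genes it was 11 of 18 (61.1%), and among expressed protein-coding genes 1024 of 8210 (12.5%). Promoters of 4 genes were chosen, 3 with words at different distances and 1 without any. RHAG, KEL and ICAM4 belong to the erythroid list counted above, and KLF1 belongs to the list of erythroid and megakaryocyte factors. Each is given 5′ to 3′ on the gene's strand and ends at the base before the start, with the words in capitals. KLF1 is the 250 bases at chr19:12887202-12887451 (minus strand) with 2 words, the nearer starting 13 bases before the start. RHAG is chr6:49636840-49637089 (minus strand) with 1 word at 31 bases. KEL is chr7:142962364-142962613 (minus strand) with 2 words, the nearer at 26 bases. ICAM4 is chr19:10286705-10286954 (plus strand) with none.
KLF1: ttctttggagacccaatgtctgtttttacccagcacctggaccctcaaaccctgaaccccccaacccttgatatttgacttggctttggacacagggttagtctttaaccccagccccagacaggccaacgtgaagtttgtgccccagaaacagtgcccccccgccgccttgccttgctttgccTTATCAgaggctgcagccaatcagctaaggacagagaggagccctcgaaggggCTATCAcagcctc
RHAG: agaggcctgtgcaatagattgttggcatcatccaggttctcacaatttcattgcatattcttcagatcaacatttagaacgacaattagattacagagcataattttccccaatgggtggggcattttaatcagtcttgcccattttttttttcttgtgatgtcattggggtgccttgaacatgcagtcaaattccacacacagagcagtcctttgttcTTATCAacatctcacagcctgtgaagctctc
KEL: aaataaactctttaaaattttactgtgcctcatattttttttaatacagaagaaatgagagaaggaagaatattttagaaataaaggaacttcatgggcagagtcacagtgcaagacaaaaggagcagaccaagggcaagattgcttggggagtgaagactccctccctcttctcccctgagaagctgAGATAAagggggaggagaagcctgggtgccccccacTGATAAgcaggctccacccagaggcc
ICAM4: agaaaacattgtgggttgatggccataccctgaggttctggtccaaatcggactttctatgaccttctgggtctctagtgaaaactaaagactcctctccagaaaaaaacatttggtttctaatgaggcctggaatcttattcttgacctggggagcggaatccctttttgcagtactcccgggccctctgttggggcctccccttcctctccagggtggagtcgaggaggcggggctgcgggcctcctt
The 4 genes had 286, 320, 27.1 and 94.7 TPM, so that the gene without a word lay between genes with 1 or 2. A match is a description of letters and does not show binding.

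Receptors differed by class in the share expressed. Of 51 receptors for haematopoietic growth factors and interleukins, 20 were expressed (39.2%) and 12 silent (23.5%), against 55.4% and 23.4% of protein-coding rows, which is the background for each receptor count here. IL2RG, the common gamma chain, had 80.54, 81.42 and 81.71 TPM, IL27RA 37.5, the interferon receptor chains IFNGR2 33.2 and IFNAR1 22.7, and the erythropoietin receptor EPOR 20.02, 18.35 and 20.70 (19.7 ± 1.21). Among the low members, named after their values were seen, IL3RA was at 0, CSF2RA had 0.300 TPM and CSF2RB 0.0367.

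Of 57 receptor tyrosine kinases, 22 were expressed and 15 silent. EPHB4, an ephrin receptor, had 37.15, 36.94 and 39.42 TPM, followed by ROR2 (21.2), TYRO3 (20.5), PTK7 (19.8) and RYK (18.0). EPHB4 lay apart from the next gene, and 12 of the 21 neighbouring pairs in the order overlapped. FLT3, PDGFRA and KDR were at 0. Among 14 receptors of the TGF-beta family, 9 were expressed and none silent. The type I receptor TGFBR1 had 28.8 ± 1.58 TPM, whereas the type II receptor TGFBR2, which it needs to bind TGF-beta, had 5 counts in all (0.0333 TPM). AMHR2, the receptor for anti-Mullerian hormone, had 10.97.

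Chemokine receptors were the receptor list with the fewest expressed members, 1 of 22, with 11 silent. The exception was CCR10 (11.81, 12.56 and 14.04 TPM), and CXCR4, which retains blood cells in marrow, had 4 counts in all. Of 19 Toll-like and cytosolic pattern receptors 4 were expressed: TMEM173, the gene of STING, had 31.5 TPM, NOD1 4.33, DDX58 1.39 and TLR6 1.33. TLR2 and NLRP3 were at 0. By contrast, 13 of 18 Notch, Wnt and hedgehog receptors were expressed, led by the Wnt co-receptor LRP5 (37.6) and FZD5 (10.1), though 8 of the 13 were under 5 TPM in at least 1 library.

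Nutrient receptors had the highest summed level of the 9 receptor lists, 1003 to 1046 TPM in the 3 libraries, with 10 of 20 expressed. After TFRC came CD320, which takes up vitamin B12 (159 TPM), the lipoprotein receptor SCARB1 (122.5), SORT1 (48.1) and TFR2 (45.6), with TFRC 12.2 ± 0.795 times TFR2. Of 16 death and Fc receptors, 7 were expressed. TNFRSF1B had 47.2 TPM, the TRAIL receptor TNFRSF10A 33.4 and TNFRSF8, the gene of CD30, 32.5, while FAS had 1 count. Of 40 receptors for lipid mediators and nucleotides, 11 were expressed, led by LTB4R2 (18.1), PTGDR2 (17.2) and P2RY11 (16.3).

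Silent families were counted by symbol. In 39 protein-coding families chosen for restricted expression, 1010 of 1531 genes were silent (66.0%) and 116 were expressed (7.58%), against 23.4% and 55.4% of protein-coding rows, and 11 families had no expressed member. Of 396 olfactory receptors, 342 were silent and 6 were expressed, with OR2W3 highest (3.64, 3.81 and 2.61 TPM). All 46 defensins, small antimicrobial peptides that include products of granulocytes, were silent. So were 80 of 83 keratin-associated proteins of hair, 32 of 35 cornified envelope proteins of skin, 36 of 44 chemokines and 18 of 21 UDP-glucuronosyltransferases. None of the 57 clustered protocadherins was expressed, but 29 had some counts. MicroRNA precursors (1877 rows) had no count, in libraries made from poly(A) RNA. Rows too short to have an effective length can take no count, whatever the RNA. How many silent rows of these families are of that kind was not tested. For short genes, such as many keratin-associated ones, silence therefore excludes little.

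Within such families a few members were high. The potassium channel KCNH2 had 172.32, 172.45 and 183.50 TPM in a family with 15 of 95 expressed (15.8%), against 55.4% of protein-coding rows. The GABA receptor subunit GABRE had 48.6 TPM, the collagens COL18A1 and COL15A1 55.2 and 23.9, and the secreted stress-response ligand GDF15 220 ± 8.55. The slow skeletal troponin TNNT1 had 55.6 TPM and the cardiac troponin TNNI3 29.3, while TNNC1 was at 0. CYP51A1, of cholesterol synthesis, had 56.6 TPM among 54 cytochrome P450 genes of which 8 were expressed (14.8%). The noncoding LINC01029 had 135.83, 137.88 and 142.44 TPM. Of 907 LINC genes 89 were expressed (9.81%), near the 12.2% of all long noncoding rows.

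Genes known as cancer-testis genes, which are normally limited to germ cells, departed from this silence in part. PRAME (chromosome 22, 22547701 to 22559265) had 1152.92, 1144.31 and 1164.42 TPM, while the other 20 members of its family were silent. Of 34 MAGE genes 12 were expressed (35.3%) and 13 were silent (38.2%), against 55.4% and 23.4% of protein-coding rows. The highest were MAGEA3 (254 ± 3.32 TPM), MAGEA6 (144) and MAGEA12 (106). GAGE12G had 1728.23, 1659.67 and 1635.05 TPM, with an effective length under 300 bases, and CTAG2 had 240.93, 236.21 and 240.46. No SSX gene was expressed. The MAGEA, GAGE and CTAG genes have close copies, so that the level of a single member is uncertain.

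**Figure D4:**
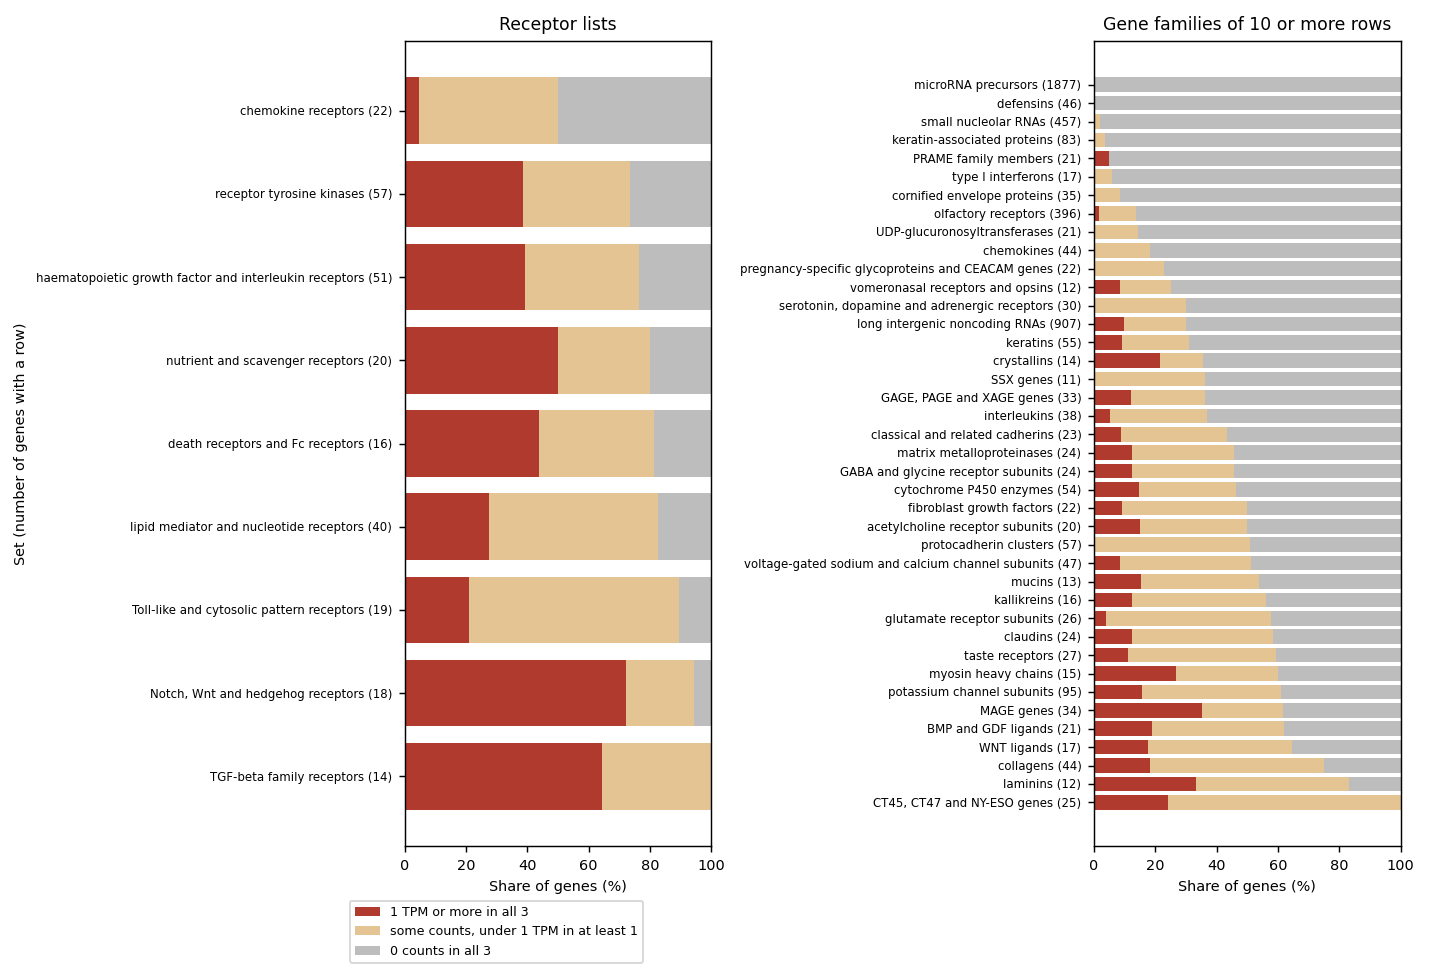
Share of genes (horizontal axis, %) that were expressed (red), had some counts but were under 1 TPM in at least 1 library (tan) or had 0 counts in all 3 DMSO libraries (grey), for 9 receptor lists and for families with at least 10 rows, with the number of genes in brackets. Chemokine receptors have the smallest red share of the receptor lists, and defensins and microRNA precursors are grey throughout. Rows with an effective length of 0, which can take no count, are grey as well.

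A silent stretch that joined an interferon cluster with other genes lay on the short arm of chromosome 9. Consecutive protein-coding genes from HACD4 to DMRTA1 (chromosome 9, 20999509 to 22455740, GRCh38.p14), 22 in all, had 4 counts together, and 19 had none. Of these genes 16 were type I interferons, which are made on infection. The other 6 were HACD4, KLHL9, MTAP, CDKN2A, CDKN2B and DMRTA1. MTAP, the enzyme of methionine salvage that most cells make, had 0 counts, which allows up to 0.0173 TPM. The cell cycle inhibitor CDKN2A had 2 counts, both in replicate 3, its neighbour CDKN2B had 1 and the ubiquitin ligase adaptor KLHL9 had 1. Genes with counts lay on both sides: RPS6 had 3947 TPM, MLLT3 3.71 ± 0.115 and FOCAD 0.260 ± 0.0400 on one side, and CAAP1 6.59 ± 1.02, PLAA 12.6 ± 0.353 and MOB3B 24.7 ± 0.115 on the other. The flanks also held genes at or near 0, among them IZUMO3, TUSC1 and LRRC19 at 0 counts, SLC24A2 with 3 counts, TEK with 2 and EQTN with 1. By number of genes it was the ninth of 53 runs of at least 10 neighbouring genes under 0.1 TPM outside chromosome Y, and runs of olfactory receptors, keratin-associated and cornified envelope genes were longer. The tables hold no DNA measurement, and whether these genes are present in the cells was not tested.

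**Figure D5:**
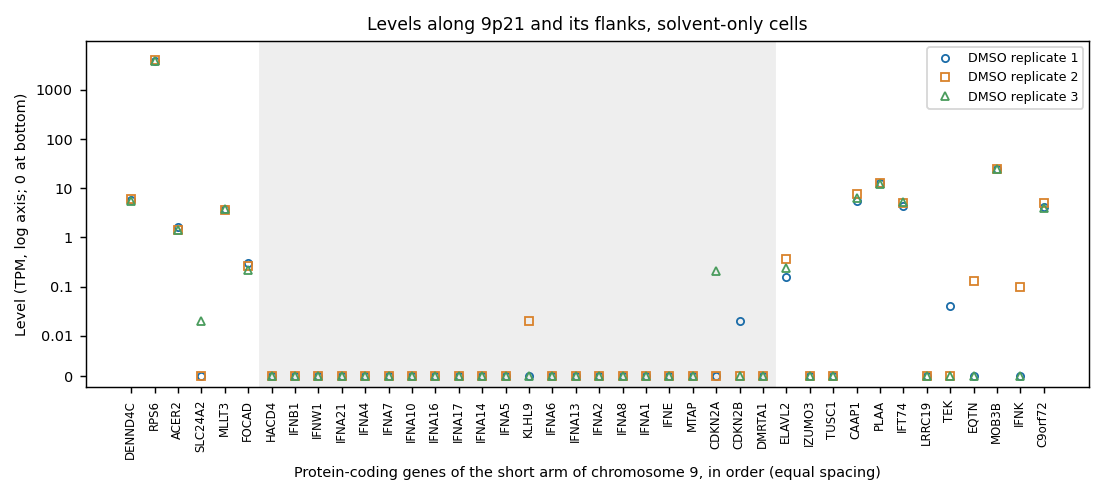
TPM in each of the 3 DMSO libraries (vertical axis, log scale, 0 drawn at the bottom) of protein-coding genes of the short arm of chromosome 9 in order, at equal spacing. The grey band holds the 22 genes from HACD4 to DMRTA1, of which 19 lie at 0 in every library, while RPS6, MLLT3, PLAA and MOB3B outside it lie above 1 TPM.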

How the data were processed

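RNA had been extracted with TRIzol, enriched for poly(A) RNA and made into directional libraries, per the labels' protocols. The deposited tables give an expected count per gene per the file headers. It was estimated with RSEM 1.2.31 on GRCh38, per the submitters' processing notes. The deposited TPM column scales these counts by effective length to 1000000 per library, per the file headers, and was used as it stands; length and effective length are in bases. For the aligner, annotation release, strand setting and filters, nothing is given in the sources used here.

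Tables were read with Python 3.11.15, pandas 2.3.3, numpy 2.4.6 and scipy 1.17.1, and plotted with matplotlib 3.10.9. With 1 group of 3 libraries no contrast and no test was made. Values are mean ± SD over 3 libraries, and an order of levels was read from whether the ranges of the libraries overlapped. CPM was computed from expected counts. Of 26830 rows, 26479 were matched to RefSeq (98.7%) by symbol, then by transcript, for coordinates, gene class and promoters. Of 727 listed genes, 713 had a row.

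The members, 34 lists and 72 families were chosen with earlier results of these data known, and 3 family patterns were corrected after their values were seen. Named are the 30 most abundant genes of at least 300 bases, up to 6 leading members of each list or family, defining markers at 0, genes at 0 in 9p21, the 5 most variable genes of at least 10 TPM and 300 bases, and MPO, ELANE, PRTN3, AZU1, CTSG, CD33, CD14, LYZ, ITGAM, SPI1, CEBPA, RARA, PML, GATA1, KLF1 and FTO. Further low or high members were named after their values were seen. Counting, shares and spread were tested on simulated data. Other thresholds, CPM, a filter on counts, removal of short genes and leaving out each library were tried. FPKM and the treated libraries were not used here. Some items are not reported here.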

Additional observations from a re-analysis of the deposited data

How the results depend on the processing

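No paired analysis was possible because a single group was described and no groups were compared. Genes that hold 50% of TPM numbered 419 without genes of effective length under 300 bases and 924 by CPM, and the share of the 10 most abundant genes was then 9.06% and 5.57%. Expressed members of the promyelocyte list numbered 5 at 0.5 TPM and 1 at 5 TPM, those of the monocyte list 0 and of the megakaryocyte list 3 at 5 TPM. Leaving out each library in turn gave 11374 to 11404 expressed and 10427 to 10520 silent genes, 180 to 184 genes that hold 50% of TPM and 10.7% to 10.8% in the first 10. It gave 3 to 4 promyelocyte, 2 monocyte, 25 erythroid and 6 to 7 megakaryocyte genes, 347 to 351 silent olfactory receptors and a median spread of 2.82% to 2.98%. Of 65 ranks of named genes, 37 moved by more than 1.5 times under CPM. At 5 TPM, 14 of 27 other list counts moved by more than 1.5 times. Depth limits short genes most, since 0 counts exclude little there, and levels of near-identical copies rest on how reads were divided.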
